A study of Mus musculus with 79 samples.

Results

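The interaction of stress and ketamine in the medial prefrontal cortex (mPFC) addresses whether chronic social defeat stress (CSDS) leaves a different transcriptional effect in mice that received ketamine than in mice that received saline. For each gene it was the log2 fold change (LFC) of CSDS over CTRL mice with ketamine minus the LFC of CSDS over CTRL mice with saline, so that a value above 0 stands for a stress effect that lay higher with ketamine. Of the 79 libraries of the series, the 39 from the mPFC entered, grouped by their titles into 10 saline-treated CTRL, 10 saline-treated CSDS, 10 ketamine-treated CTRL and 9 ketamine-treated CSDS mice. The mPFC of mouse 5, which belongs to the last of these groups, was not analysed here. All mice were wild-type CD-1 males, 9 to 10 weeks old at the start. CSDS mice lived in groups of 4 and were defeated daily for 21 days, whereas CTRL mice were group-housed without defeat. Every mouse then moved with its group of 4 to a social box, received 1 intraperitoneal injection on day 4, either (R,S)-ketamine at 10 mg/kg or saline, and was sampled 7 days later. The tissue was a punch of the mPFC and holds all cell types of that region. The stress effect with ketamine and the stress effect with saline were estimated on separate mice and share no library. Stress was given to whole groups of 4, so the mice of a group are not independent replicates of it. Each run of 4 consecutive mouse numbers held both treatments, so both stress effects may draw on the same groups. The labels do not give the groups, and the main fit had no term for them.

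CSDS exposes a mouse to repeated subordination by an aggressor and is widely used to model depression-like states. Ketamine blocks the pore of NMDA-type glutamate receptors, and a single dose is known for antidepressant effects that outlast the drug itself. The mPFC holds mainly excitatory pyramidal neurons, with inhibitory interneurons and glia, and takes part in the control of stress responses. Oxidative phosphorylation (OXPHOS) genes encode the respiratory chain and the ATP synthase of mitochondria, ribosomal protein genes encode the translation machinery, oligodendrocytes form myelin, and synaptic adhesion genes encode the cell surface proteins that hold synapses together.

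Total counts lay between 11726129 and 34501588 per mPFC library, with a median of 19519631. Slc17a7, the vesicular glutamate transporter of cortical neurons, reached at least 1263 CPM (counts per gene scaled to the library total) in every library, and the cortical layer genes Cux2 and Fezf2 were detected in all of them. Striatal Drd2 and Adora2a had medians of 1.38 and 1.70 CPM, and Folr1 and Kcne2 of the choroid plexus were at 0 in 18 and 11 libraries. The labels give separate mice as replicates, and no pair of mPFC libraries within a group was identical or as close as counting noise.

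No gene passed the test of the interaction. With edgeR's quasi-likelihood test and Benjamini-Hochberg adjustment, 0 of 28993 genes (0%) had an adjusted p under 0.05, and the smallest adjusted p was 0.771. DESeq2 and limma-voom also called 0 genes. An unadjusted p under 0.05 was found for 1539 genes (5.31%), a share close to that set by the threshold itself, with 705 above 0 (2.43%) and 834 below 0 (2.88%). DESeq2 gave 1243 such genes and limma-voom 1475. The share was 7.15% with the run of 4 consecutive mouse numbers as a block, and 7.48% with the set of 2 runs as a covariate. The stress effect within each treatment had 0 adjusted calls as well, with 1681 genes at an unadjusted p under 0.05 with ketamine and 852 with saline. For genes of at least 1 CPM the median standard error (SE) of the interaction was 0.112 on the log2 scale. The values of single genes are estimates that did not pass the test, and the classes are described by how many members lay on each side of 0.

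Opposite stress effects were common among all genes. The LFC lay above 0 with ketamine and below 0 with saline in 8253 of 28993 genes (28.5%), and the reverse was found in 7800 (26.9%). Among the 15691 genes of at least 1 CPM these shares were 5041 genes (32.1%) and 4265 genes (27.2%). The count in the first direction was 3879 without mouse 22, a saline-treated CTRL mouse, and between that and 5277 with any other mouse left out. The balance of these shares depended on the fit, with 4307 genes in the first and 5036 in the second direction without the filter on low counts, and 4737 and 4617 with DESeq2. Gene classes were read against the shares of the edgeR fit. In 32 lists of genes, the members of some classes lay almost entirely in 1 direction, and the plot of both stress effects by class shows which.

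**Figure D1:**
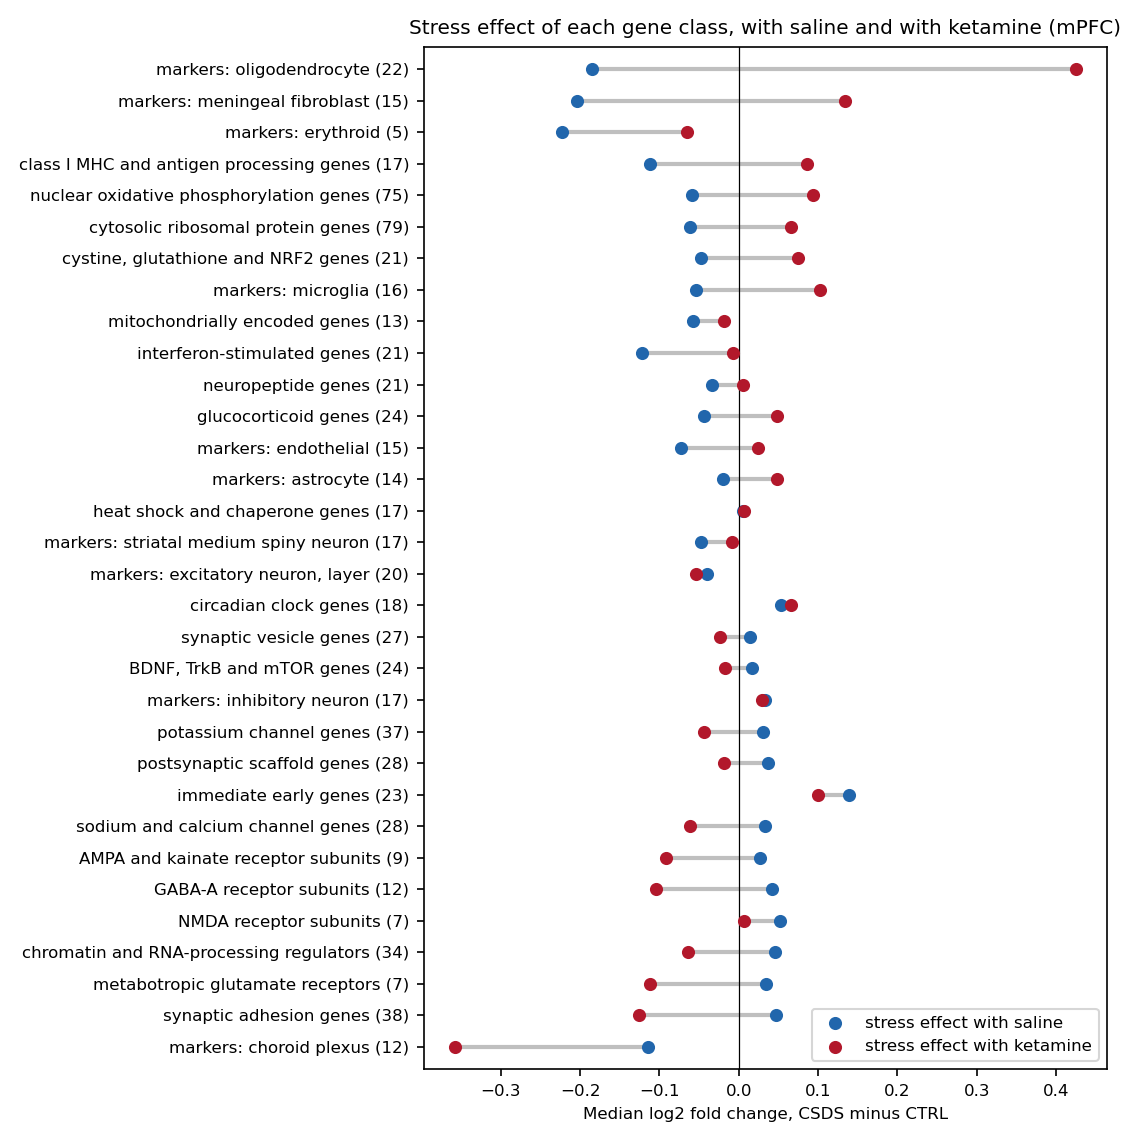
Median log2 fold change of CSDS over CTRL mice for the members of each gene list, with saline in one color and with ketamine in the other, the number of tested genes in parentheses. The pairs of points lie farthest apart for oligodendrocyte markers, at -0.18 with saline and 0.42 with ketamine, and the pairs of the OXPHOS and ribosomal protein genes open in the same direction, while the synaptic adhesion genes lie at 0.05 with saline and -0.13 with ketamine.

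The nuclear OXPHOS genes had opposite effects in nearly all members. Their median stress LFC was 0.09 with ketamine and -0.06 with saline, giving a median interaction of 0.16, which was 0.09 with an offset for gene length. Without mouse 22 the median with saline was -0.03, and without mouse 1 that with ketamine was 0.06. Of 75 tested members, 71 lay above 0 with ketamine and below 0 with saline, and 1 showed the reverse. The first direction held 32.1% of all genes of at least 1 CPM, and 49.4% in the shortest of 5 bins of gene length. The interaction was above 0 in 74 members. An unadjusted p under 0.05 was reached by 23 members above 0 and by 0 below 0, against 2.43% and 2.88% of all genes tested. The members share their libraries, so these are not counts of independent genes. The count of 23 depended on single mice, with 5 without mouse 22, 6 without mouse 1, 8 without mouse 24, 45 without mouse 11 and 46 without mouse 18, and it was 6 with the length offset. With the run of 4 consecutive mouse numbers as a block, 47 members had an unadjusted p under 0.05, and so did 2073 of all 28993 genes (7.15%).

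Each complex of the respiratory chain shared the direction. In complex I, which accepts electrons from NADH, the interaction was above 0 in 37 of 37 genes with a median of 0.15. Complex III had 9 of 9 above 0 with a median of 0.16, and complex IV, the terminal oxidase, had 10 of 10 with the values between 0.14 and 0.25 and a median of 0.19. All 15 genes of the ATP synthase lay above 0, with a median of 0.15. In complex II, whose subunits belong also to the citric acid cycle, 3 of 4 were above 0. The 13 protein genes that the mitochondrion itself encodes stood less apart, with medians of -0.02 with ketamine and -0.06 with saline. Their median interaction was 0.11, and 6 members had opposite effects in that direction. Without mouse 24 these values were 0.06 and 3. With 1 mouse left out, the median with ketamine ran from -0.09 to 0.04 and that with saline from -0.13 to -0.01. The highest interaction among these genes was that of mt-Co3, a subunit of complex IV, at 0.37 ± 0.24 (SE).

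Atp5h, a subunit of the stalk of the ATP synthase, had the smallest p of the list. It was measured at 94.6 CPM in the lowest, 104.2 in the median and 125.1 in the highest saline-treated CTRL mouse, and at 90.05, 97.2 and 131.6 CPM in saline-treated CSDS mice. In ketamine-treated CTRL mice the values were 80.8, 100.5 and 106.7 CPM, and in ketamine-treated CSDS mice they were 95.5, 111.5 and 131.5 CPM. The ranges overlapped in both treatments, and the median of CSDS mice lay above that of CTRL mice with ketamine and below it with saline. The interaction of Atp5h was 0.28 ± 0.09 (SE; unadjusted p = 0.0045, adjusted p = 0.898, edgeR). Uqcrfs1, the Rieske iron-sulfur protein of complex III, had medians of 78.98 and 77.2 CPM in saline-treated CTRL and CSDS mice and of 76.4 and 81.6 CPM in the ketamine-treated ones, with an interaction of 0.16 ± 0.06. Values of 0.25 were found for Cox5a and Ndufc1, 0.24 for Ndufa13 and 0.22 for Cox8a.

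Cytosolic ribosomal protein genes lay in the same direction. Their medians were 0.07 with ketamine and -0.06 with saline, with a median interaction of 0.14. Opposite effects with ketamine above 0 were found in 71 of 79. That direction held 32.1% of all genes of at least 1 CPM, and 49.4% in the shortest of 5 bins of gene length. The small subunit had 30 of 32 genes with an interaction above 0, and the large subunit 47 of 47. Without mouse 1 the median interaction was 0.09, the median with ketamine 0.02 and the number of opposite members 60. Without mouse 24 the median with saline was -0.03. With an offset for gene length the median interaction was 0.06. An unadjusted p under 0.05 was reached by 8 members above 0, against 2.43% of all genes tested, among them Rps2 at 0.54 ± 0.23 (SE), Rps12 at 0.29 ± 0.12 and Rps7 at 0.20. That count was 1 without mouse 1, 0 without mouse 24, and 21 without mouse 11. Rps2 ranged widely in each group, from 55.1 to 141.6 CPM in saline-treated CTRL, 48.1 to 110 in saline-treated CSDS, 51.1 to 83.3 in ketamine-treated CTRL and 55.2 to 115.7 CPM in ketamine-treated CSDS mice. Many ribosomal protein genes have processed pseudogenes of nearly the same sequence, so that their counts are uncertain where reads could be shared.

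The promoters of both lists were searched for motifs known from such genes. The NRF1 motif, with the letters GCGCA, any base, then GCGC, and the ETS motif, CCGGAAGT, were counted on both strands in the 250 bases before each RefSeq transcript start (GRCm38.p6). Among all 32851 promoters, 3.74% held the NRF1 motif and 2.88% the ETS motif. For OXPHOS genes, 62 of 75 were matched to 67 promoters, of which 14 (20.9%) held the NRF1 motif. For ribosomal protein genes, 58 of 79 were matched to 68 promoters, of which 8 (11.8%) held the ETS motif. Of the 41 promoters of synaptic adhesion genes 0 held either, of the 34 of chromatin and RNA-processing regulators 1 held each (2.94%), and of the 19 of oligodendrocyte markers 2 held the NRF1 motif (10.5%) and 0 the ETS motif. The NRF1 motif was in 1 ribosomal promoter (1.47%), and the ETS motif in 3 OXPHOS promoters (4.48%). A match describes the letters of the promoter and not a bound site. The promoters of Atp5h (chr11:115419920-115420169, minus strand), Atp5g2 (chr15:102671048-102671297, minus strand) and Atp5k (chr5:108434400-108434649, minus strand), all ATP synthase genes, are shown from 5′ to 3′ with the NRF1 motif in capitals. Those of the ribosomal protein genes Rpl35 (chr2:39005132-39005381, minus strand) and Rps25 (chr9:44407464-44407713, plus strand) have the ETS motif in capitals, in Rpl35 on the reverse strand. The promoter of Atp5h also holds the ETS motif on the reverse strand, left in lower case. They were taken from all chromosomes but 1, as the genes of smallest interaction p that hold the motif and have 1 RefSeq start. The position of the motif differs between them.
Atp5h: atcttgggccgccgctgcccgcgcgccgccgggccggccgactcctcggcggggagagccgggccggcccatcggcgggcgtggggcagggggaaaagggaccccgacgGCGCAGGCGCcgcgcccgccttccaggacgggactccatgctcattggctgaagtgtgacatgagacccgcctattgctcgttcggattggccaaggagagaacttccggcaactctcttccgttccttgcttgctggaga
Atp5g2: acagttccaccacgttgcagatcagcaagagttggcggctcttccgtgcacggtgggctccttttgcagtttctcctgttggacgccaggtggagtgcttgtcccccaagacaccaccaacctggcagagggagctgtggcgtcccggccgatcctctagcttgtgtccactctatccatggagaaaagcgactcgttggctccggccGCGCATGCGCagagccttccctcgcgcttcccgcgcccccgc
Atp5k: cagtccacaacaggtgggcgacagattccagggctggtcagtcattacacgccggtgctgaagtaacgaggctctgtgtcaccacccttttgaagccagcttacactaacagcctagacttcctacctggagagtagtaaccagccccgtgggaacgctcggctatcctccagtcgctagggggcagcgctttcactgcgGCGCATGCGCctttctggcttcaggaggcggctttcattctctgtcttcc
Rpl35: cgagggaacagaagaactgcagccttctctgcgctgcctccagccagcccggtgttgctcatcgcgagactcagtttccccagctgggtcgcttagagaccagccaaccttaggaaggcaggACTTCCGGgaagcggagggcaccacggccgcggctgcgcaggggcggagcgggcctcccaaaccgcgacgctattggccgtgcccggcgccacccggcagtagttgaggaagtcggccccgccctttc
Rps25: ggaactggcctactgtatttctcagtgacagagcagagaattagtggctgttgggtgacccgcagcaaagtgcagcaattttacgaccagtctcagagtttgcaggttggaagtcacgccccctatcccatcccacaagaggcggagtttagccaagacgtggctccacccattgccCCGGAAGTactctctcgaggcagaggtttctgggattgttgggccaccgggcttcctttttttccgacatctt

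Beside Atp5h, Atp5g2 had an interaction of 0.21 ± 0.09 (SE) and Atp5k one of 0.23 ± 0.10. Rpl35 was at 0.22 ± 0.12 and Rps25 at 0.15 ± 0.10, neither with an unadjusted p under 0.05.

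Oligodendrocyte markers had the largest median interaction of the 32 lists, 0.60, from a median of 0.42 with ketamine and -0.18 with saline. All 22 had opposite effects with ketamine above 0, but their error was large. Of the 22, only Olig1 had an unadjusted p under 0.05, against 2.43% of all genes tested with one above 0. That count of 1 was 0 without mouse 22 and 5 without mouse 2. Mbp, encoding myelin basic protein, had an interaction of 0.60 ± 0.55 (SE), and the gap junction gene Gjb1 0.93 ± 0.55. Olig1, a transcription factor of the lineage, was at 0.39 ± 0.19. In a tissue punch, fewer cells of a type and less RNA per cell cannot be told apart.

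The markers followed single mice. Their summed level ran from 1103 to 7594 CPM in saline-treated CTRL mice, with a median of 1835, and from 947 to 6236 CPM, with a median of 1914, in saline-treated CSDS mice. With ketamine it ran from 1057.2 to 4349 CPM in CTRL mice, with a median of 2051, and from 959 to 7430 CPM in CSDS mice, with a median of 2867. The 4 ranges overlapped, and that of ketamine-treated CTRL mice ended lowest. Without mouse 22, the saline-treated CTRL mouse with the highest level, the median stress LFC with saline was 0.14 and the median interaction 0.26. In that setting 2 of 22 markers had opposite effects, while the interaction was above 0 in 22 of 22. Without mouse 6, a ketamine-treated CSDS mouse, the median stress LFC with ketamine was 0.14 and the median interaction 0.31. Without mouse 2, the saline-treated CSDS mouse with the highest level, the median interaction was 0.91.

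**Figure D2:**
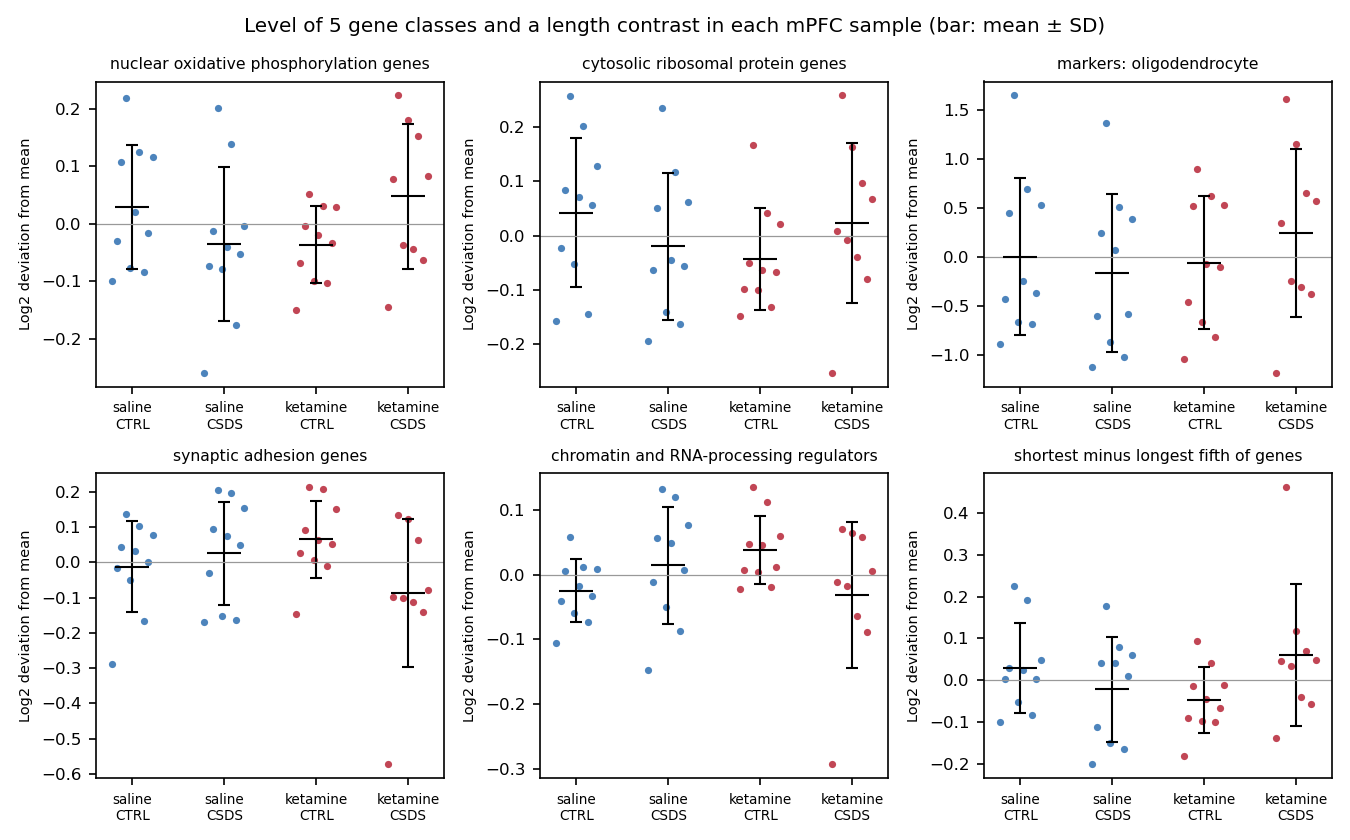
Level of 5 gene classes and a contrast of short against long genes in each of the 39 mPFC samples, as the mean over members of the log2 deviation from the mean of all samples, with bars for the mean ± SD of each group (n = 10, 10, 10 and 9). The groups overlap in every panel, the oligodendrocyte panel spans more than 2 log2 units within each stressed group, and mouse 1 is the lowest ketamine-treated CSDS mouse for synaptic adhesion genes, at -0.573.

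By sample, the OXPHOS list lay at 0.03 ± 0.11 (SD, n = 10) in saline-treated CTRL and at -0.04 ± 0.13 (SD, n = 10) in saline-treated CSDS mice, as the mean log2 deviation from all samples. It lay at -0.04 ± 0.07 (SD, n = 10) in ketamine-treated CTRL and at 0.05 ± 0.13 (SD, n = 9) in ketamine-treated CSDS mice. The differences between these means were smaller than the SD of most groups. The highest OXPHOS level with saline in CTRL mice was that of mouse 22, at 0.218. The highest with ketamine in CSDS mice was that of mouse 1, at 0.223. Each raised the mean of its group.

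Other classes lay above 0 with smaller counts. Of 21 genes for cystine uptake, glutathione and the NRF2 response, 18 had an interaction above 0 and 15 had opposite effects with ketamine above 0. Gsr, glutathione reductase, was at 0.26 ± 0.10 (SE), Txn1, thioredoxin, at 0.17 ± 0.07, and Fth1, ferritin heavy chain, at 0.30 ± 0.14, all with an unadjusted p under 0.05. These 3 stand against 2.43% of all genes tested, and the count was 1 without mouse 1. Slc7a11, the cystine and glutamate exchanger, was at 0.04 ± 0.37. Microglia markers had a median interaction of 0.12, with 9 of 16 opposite, and without mouse 24 a median of 0.04 with 5 opposite, and 0 of the 16 had an unadjusted p under 0.05. Their 2 members of smallest p were Selplg at 0.31 ± 0.16 and Tmem119 at 0.36 ± 0.19. Astrocyte markers had a median of 0.06, which ran from 0.02 without mouse 24 to 0.10 without mouse 7, and endothelial markers one of 0.07, which ran from 0.03 without mouse 30 to 0.11 without mouse 21. Meningeal fibroblast markers, which enter a cortical punch with the pia, had a median of 0.30 and 10 of 15 opposite, and that median ran from 0.03 without mouse 30, where 4 were opposite, to 0.49 without mouse 21. Their summed level lay between 71.1 and 557 CPM over all groups.

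Immune genes had medians above 0 and opposite effects in shares near the 32.1% of all genes, with levels that were far apart between mice. Class I MHC and antigen processing genes had a median interaction of 0.19, and of 0.10 without mouse 3, with 6 of 17 (35.3%) opposite in the upward direction, 3 without mouse 3, and 1 in the other. H2-T22, a nonclassical class I gene, had medians of 0.815 and 0.633 CPM in saline-treated CTRL and CSDS mice, 0.671 CPM in ketamine-treated CTRL and 8.65 CPM in ketamine-treated CSDS mice. Single mice of other groups reached the same level, mouse 22 with 9.40 CPM and mouse 2 with 11.9 CPM, whereas the highest ketamine-treated CTRL mouse had 1.02 CPM. Its interaction was 2.27 ± 0.97 (SE; unadjusted p = 0.0239, adjusted p = 0.898, edgeR), and it was 1.02 with an unadjusted p of 0.275 without mouse 22. H2-T23, its neighbour, was at 1.17 ± 0.56, and at 0.74 without mouse 22. The fitted stress LFC of H2-T22 was 2.97 with ketamine and 0.70 with saline, while its median with saline was lower in CSDS than in CTRL mice. Class I genes are close paralogs, and counts may be split between them. Of 21 interferon-stimulated genes, 8 (38.1%) were opposite upward and 3 downward, with a median interaction of 0.10 that was 0.02 without mouse 3, with Ifi35 at 0.48 ± 0.21 and Bst2, a restriction factor of viruses, at 0.69 ± 0.33.

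Synaptic adhesion genes carried the opposite pattern. Their median stress LFC was -0.13 with ketamine and 0.05 with saline, with a median interaction of -0.19. With 1 mouse left out, the median with ketamine ran from -0.16 to -0.09 and that with saline from 0.02 to 0.07. In those fits 22 to 32 members were opposite downward. Of 38 members, 26 lay below 0 with ketamine and above 0 with saline, and 0 showed the reverse. The first direction held 27.2% of all genes of at least 1 CPM, and 53.8% in the longest of 5 bins of gene length. The interaction was below 0 in 35 members, and 8 of these had an unadjusted p under 0.05, against 2.88% of all genes tested. That count was 4 without mouse 1, 3 without mouse 7 and 16 without mouse 2, and the median ran from -0.22 to -0.16 with 1 mouse left out and was -0.10 with an offset for gene length.

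The families within the list were alike in direction. Protocadherins, homophilic adhesion proteins, were below 0 in 7 of 7, with a median of -0.24, and cadherins in 7 of 7, with a median of -0.13. All 4 teneurins, which bind latrophilins across the synapse, were between -0.28 and -0.20, and the 3 latrophilins themselves had a median of -0.13. The 3 neurexins, presynaptic receptors of neuroligins, had a median of -0.17, and 5 of 7 contactins and contactin-associated proteins were below 0.

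Epha6, an ephrin receptor, had the smallest p of the list. It was measured at 24.4, 27.9 and 38.8 CPM in the lowest, median and highest saline-treated CTRL mouse and at 22.4, 30.4 and 47.8 CPM in saline-treated CSDS mice. With ketamine it was at 26.7, 31.8 and 35.6 CPM in CTRL and at 13.8, 25.6 and 36.6 CPM in CSDS mice. Mouse 1 was the lowest ketamine-treated CSDS mouse, and the groups overlapped. The interaction of Epha6 was -0.44 ± 0.18 (SE; unadjusted p = 0.0187, edgeR). Adgrl3, a latrophilin, was at -0.27 ± 0.12, Cdh12 at -0.54, Pcdh11x at -0.40, Pcdh10 at -0.25 and Nrxn3 at -0.20.

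Receptor and channel genes were mostly below 0. Metabotropic glutamate receptors had a median interaction of -0.17, with 5 of 7 below 0 with ketamine and above 0 with saline, and Grm5, a receptor coupled to phospholipase C, was at -0.29 ± 0.14 (SE). Grm2 and Grm4 lay at 0.13 and 0.10. Of 9 AMPA and kainate receptor subunits 4 were opposite in the downward direction, with Grik2 at -0.22 ± 0.09, though at 0.0081 with offsets for GC content and gene length together, and Gria2, which sets the calcium permeability of AMPA receptors, at -0.25 ± 0.12. GABA-A receptor subunits had a median of -0.11, with 8 of 12 opposite downward, 0 upward and 0 with an unadjusted p under 0.05, a count that was 4 without mouse 2. Gabrd, the subunit of extrasynaptic receptors, lay above 0, at 0.21 ± 0.12. Over all genes of at least 1 CPM 27.2% were opposite downward, and 32.4% and 53.8% were so in the 2 longest of 5 length bins.

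NMDA receptor subunits, the direct target of ketamine, differed among themselves. Grin2b had an interaction of -0.29 ± 0.13 (SE; unadjusted p = 0.0303, edgeR), with medians of 642 and 700 CPM in saline-treated CTRL and CSDS mice and of 699 and 602 CPM in the ketamine-treated ones. Its lowest sample was mouse 1, a ketamine-treated CSDS mouse with 436 CPM, and all groups overlapped. Grin2c lay above 0, at 0.22 ± 0.13, and Grin1, the obligatory subunit, at -0.05 ± 0.06. The median of the 7 subunits was -0.12, and it was 0.00 with an offset for gene length and -0.05 without mouse 25.

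Voltage-gated sodium and calcium channel genes had 17 of 28 members opposite downward and 2 upward, with Cacna1e, the R-type calcium channel, at -0.31 ± 0.11 (SE) and Scn3a at -0.28 ± 0.12. Potassium channel genes had 17 of 37 downward and 6 upward, with Kcnd3 at -0.19 ± 0.07 and Kcnb2 at -0.35 ± 0.13. Of 28 postsynaptic scaffold genes 17 were downward and 2 upward, with Dlgap1 and Dlg2 at -0.13 ± 0.05 and -0.16 ± 0.07. Synaptic vesicle genes had 15 of 27 downward and 6 upward, and 5 downward without mouse 10. Among them Syn3 was at -0.32 ± 0.11 and Bsn, a scaffold of the active zone, at -0.26 ± 0.14. The downward shares of these 4 lists were 60.7%, 45.9%, 60.7% and 55.6%. Over all genes of at least 1 CPM that share was 27.2%, and it was 32.4% and 53.8% in the 2 longest of 5 length bins. In these 4 lists 0 members had an unadjusted p under 0.05 with an interaction above 0, and 4, 3, 2 and 1 had one below 0, against 2.88% of all genes tested, which the 1 of 27 vesicle genes is near. Those counts reached 7 without mouse 12, 6 without mouse 19, 5 without mouse 26 and 4 without mouse 23, and were 2 without mouse 22, 2 without mouse 21, 1 without mouse 1 and 1 without mouse 22.

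Chromatin and RNA-processing regulators with long transcripts lay below 0 as a list. Their medians were -0.06 with ketamine and 0.05 with saline, and the interaction was below 0 in 32 of 34. Opposite effects in the downward direction were found in 28 of 34. That direction held 27.2% of all genes of at least 1 CPM, and 53.8% in the longest of 5 bins of gene length. The 4 KMT2 histone methyltransferases had a median of -0.18, and 6 of 7 CHD remodellers were below 0. Kcnq1ot1, an imprinted long non-coding RNA that silences its neighbours in cis, had the smallest p of the list. It had medians of 32.5 and 33.3 CPM in saline-treated CTRL and CSDS mice and of 40.5 and 28.2 CPM in the ketamine-treated ones, with an interaction of -0.59 ± 0.19 (SE; unadjusted p = 0.00329, adjusted p = 0.898, edgeR). It is antisense to Kcnq1, and the strand setting of the counting is not given in the sources used here. Nktr was at -0.18 ± 0.07, though at 0.041 with offsets for GC content and gene length together, and Kmt2a at -0.21 ± 0.09. With the offset for gene length the median of the list was -0.03 in place of -0.12.

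Immediate early genes, which neurons transcribe after activity, did not show opposite effects as a class. Their median stress LFC was above 0 in both treatments, 0.10 with ketamine and 0.14 with saline, and the interaction was below 0 in 19 of 23, with a median of -0.09 and 0 members at an unadjusted p under 0.05. That median ran from -0.15 without mouse 28 to -0.02 without mouse 15, and the median with ketamine was 0.03 without mouse 20. With 1 mouse left out, the median with saline ran from 0.06 to 0.17. Fos had an LFC of 0.28 with ketamine and 0.54 with saline, and Arc of 0.28 and 0.48. Npas4, an activity-dependent transcription factor, had the smallest p of the list and an interaction of -0.41 ± 0.25 (SE).

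Genes of the stress axis and of plasticity lay in different directions. Of 24 glucocorticoid axis and glucocorticoid-induced genes 11 were opposite upward and 2 downward, with a median of 0.10 that was 0.02 without mouse 6. Crhr1, the receptor of corticotropin-releasing hormone, was at 0.25 ± 0.11 (SE), and Fkbp5, a co-chaperone induced by glucocorticoids, at -0.02. Among 24 BDNF, TrkB and mTOR genes the median was -0.04, with 13 opposite downward (54.2%) and 5 upward (20.8%). Over all genes of at least 1 CPM these shares were 27.2% and 32.1%. Bdnf itself was at -0.02 ± 0.13 and Rictor, a subunit of mTOR complex 2, at -0.24 ± 0.10. Circadian clock genes had a median of -0.03, which ran from -0.06 without mouse 16 to -0.01 without mouse 15, and heat shock genes one of 0.01, which ran from -0.02 without mouse 2 to 0.04 without mouse 31, with Nfil3 at 0.33 ± 0.15 and Cryab, a small heat shock protein that is also an oligodendrocyte marker, at 0.52 ± 0.33. Neuropeptide genes had a median of 0.10, which was -0.004 without mouse 20, with 8 of 21 (38.1%) opposite upward and 4 downward.

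Markers of neurons had medians near 0, whose signs depended on single mice. Cortical excitatory neuron and layer markers had a median interaction of 0.00, with 4 of 20 opposite upward and 3 downward, and inhibitory neuron markers a median of -0.04, with 5 of 17 upward and 6 downward. Erbb4, the neuregulin receptor of interneurons, was at -0.32 ± 0.17 (SE). Striatal markers had a median of 0.01, although Drd2, at 1.60 CPM on average, was at -1.01 ± 0.40. Choroid plexus markers, with a median of -0.23, were near the limit of detection in the mPFC, and the sign of their median depended on the fit and on mouse 2, without which it was 0.05. Erythroid markers had a median of 0.22 over 5 genes, which ran from -0.05 without mouse 24 to 0.54 without mouse 4.

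Single genes that crossed between treatments were rare. Among genes of at least 1 CPM, 9 had an unadjusted p under 0.05 in both stress effects with ketamine above 0 and saline below 0 (0.0574%), and 9 had the reverse (0.0574%). A further 4 had both effects in the same direction. Among the 8 of smallest interaction p above 0 were Gm21887, Dsn1, Gm13226, G530011O06Rik, Uqcc3, Exosc5 and Tmco6. Those below 0 were Gm26871, Mamld1, Pign, Gm38162, Csmd3, Snapc1, CT025671.1 and Muc3a.

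Dsn1 (chr2:156995265-157007154, minus strand, GRCm38), a protein-coding gene of the kinetochore, had 2.94, 3.68 and 4.56 CPM in the lowest, median and highest saline-treated CTRL mouse and 1.96, 2.95 and 3.53 CPM in saline-treated CSDS mice. With ketamine it had 2.28, 2.84 and 3.91 CPM in CTRL and 3.11, 3.56 and 4.43 CPM in CSDS mice. The medians crossed, and the ranges overlapped within each treatment. The interaction of Dsn1 was 0.63 ± 0.16 (SE; unadjusted p = 0.000285, adjusted p = 0.771, edgeR), from 0.32 ± 0.11 with ketamine and -0.31 ± 0.11 with saline.

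Uqcc3 (chr19:8880014-8880923, minus strand), an assembly factor of respiratory complex III that is not in the OXPHOS list, had medians of 14.1 and 12.7 CPM in saline-treated CTRL and CSDS mice and of 12.4 and 13.6 CPM in the ketamine-treated ones. Its interaction was 0.31 ± 0.08 (SE), in the direction of the OXPHOS genes, and 0.16 with the offset for gene length, with an unadjusted p of 0.09. Exosc5, a subunit of the RNA exosome that overlaps Tmem91 on the other strand, was at 0.33 ± 0.10, and Tmco6, which overlaps Ndufa2, at 0.30 ± 0.09. Gm21887 at 1.35 ± 0.34, the pseudogene Gm13226 at 1.00 ± 0.25 and G530011O06Rik at 1.92 ± 0.51, which overlaps Mid1 on the other strand, are uncertain, as reads can be shared with copies or with the overlapping gene.

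Below 0, Gm26871 (chr3:118430324-118530022, plus strand) is a non-coding transcript whose locus holds Mir137, the gene of a brain-enriched microRNA. It had 4.34, 4.71 and 7.37 CPM in the lowest, median and highest saline-treated CTRL mouse and 4.86, 5.49 and 11.4 CPM in saline-treated CSDS mice. With ketamine it had 4.51, 6.31 and 8.05 CPM in CTRL and 3.18, 4.56 and 5.39 CPM in CSDS mice. The median of CSDS mice was above that of CTRL mice with saline and below it with ketamine, and the ranges overlapped. The interaction of Gm26871 was -0.78 ± 0.19 (SE; unadjusted p = 0.000197, adjusted p = 0.771, edgeR), and -0.65 without mouse 15.

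Mamld1 (chrX:71050240-71156056, plus strand), a mastermind-like gene, had medians of 52.5 and 53.7 CPM with saline and of 54.7 and 49.9 CPM with ketamine in CTRL and CSDS mice and an interaction of -0.24 ± 0.06 (SE). Slc24a4, a potassium-dependent sodium and calcium exchanger, was at -0.34 ± 0.11, Srgap3, which regulates small GTPases in axon guidance, at -0.21 ± 0.07, the lincRNA CT025671.1 at -0.96 ± 0.29 and the mucin gene Muc3a at -0.59 ± 0.18. Pign, an enzyme of the GPI anchor, was at -0.45 ± 0.12, the large adhesion-type gene Csmd3 at -0.45 ± 0.13, Snapc1, a factor for small nuclear RNA genes, at -0.41 ± 0.12 and Gm38162 at -0.98 ± 0.27. In the latter 4, the stress LFC with saline was above 0 without an unadjusted p under 0.05.

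**Figure D3:**
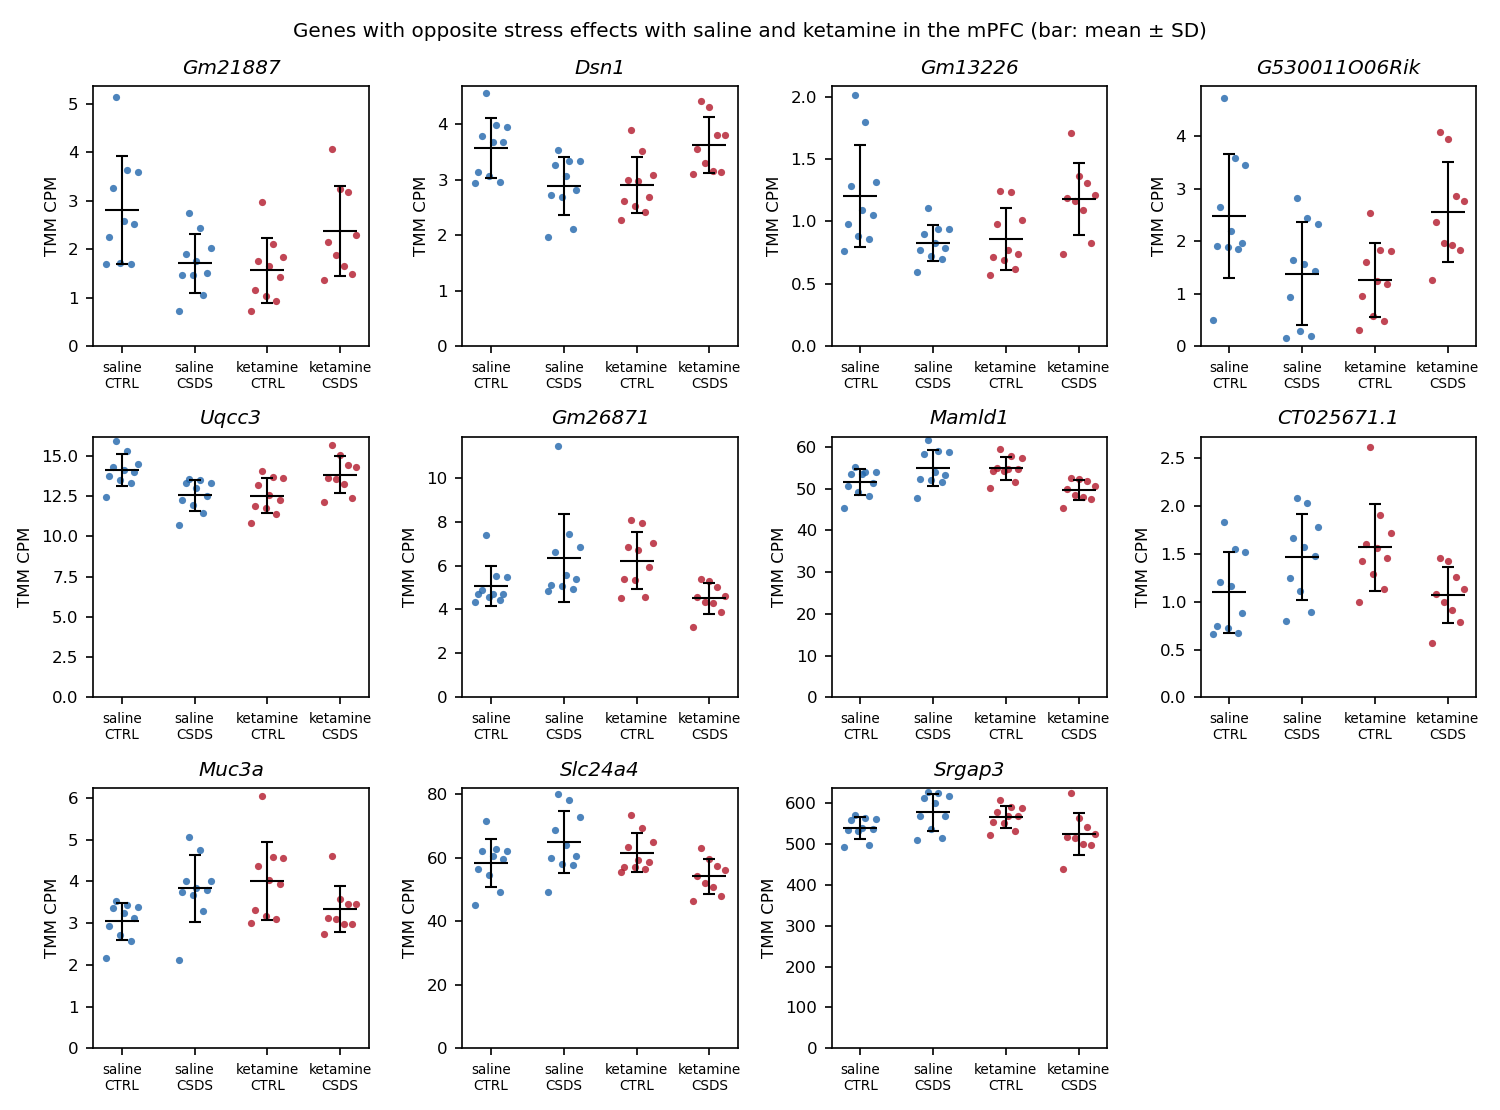
CPM of genes with opposite stress effects in each mPFC sample of the 4 groups, with bars for the mean ± SD; the axes start at 0. For Dsn1 and Uqcc3 the CSDS mice lie lower than CTRL mice with saline and higher with ketamine, for Gm26871 and Mamld1 the order is the reverse, and the ranges of CTRL and CSDS mice overlap in each panel.

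The direction of the opposite effects followed gene length and GC content across all genes. Genes of at least 1 CPM were ordered by the summed length of their exons and divided into 5 bins of equal size. In the shortest bin, up to 2140 bases, 49.4% lay above 0 with ketamine and below 0 with saline and 11.7% showed the reverse, while in the longest bin, from 7417 bases, the shares were 12.4% and 53.8%. The median interaction went from 0.10 to -0.07. An unadjusted p under 0.05 was found for 170 genes above 0 (5.42%) and 36 below 0 (1.15%) in the shortest bin. In the longest bin these were 14 (0.446%) and 211 (6.72%), and over all genes of at least 1 CPM 390 (2.49%) and 377 (2.40%). By GC content, 17.3% were opposite upward and 44.9% downward in the bin of lowest GC, and 45.4% and 14.4% in the highest. Within the bin of lowest GC content the median interaction was 0.02 for the shortest and -0.11 for the longest genes, and within that of highest GC content it was 0.12 and -0.04.

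By sample, the level of the shortest bin minus that of the longest was 0.03 ± 0.11 (SD, n = 10) in saline-treated CTRL, -0.02 ± 0.13 (SD, n = 10) in saline-treated CSDS, -0.05 ± 0.08 (SD, n = 10) in ketamine-treated CTRL and 0.06 ± 0.17 (SD, n = 9) in ketamine-treated CSDS mice. Mouse 1 had the highest value, 0.463, which raised the mean of the ketamine-treated CSDS mice, and the groups overlapped. Per the study's methods, samples of low RNA integrity were removed before sequencing. The integrity of each library is not in the labels, and its part in this gradient was not tested.

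**Figure D4:**
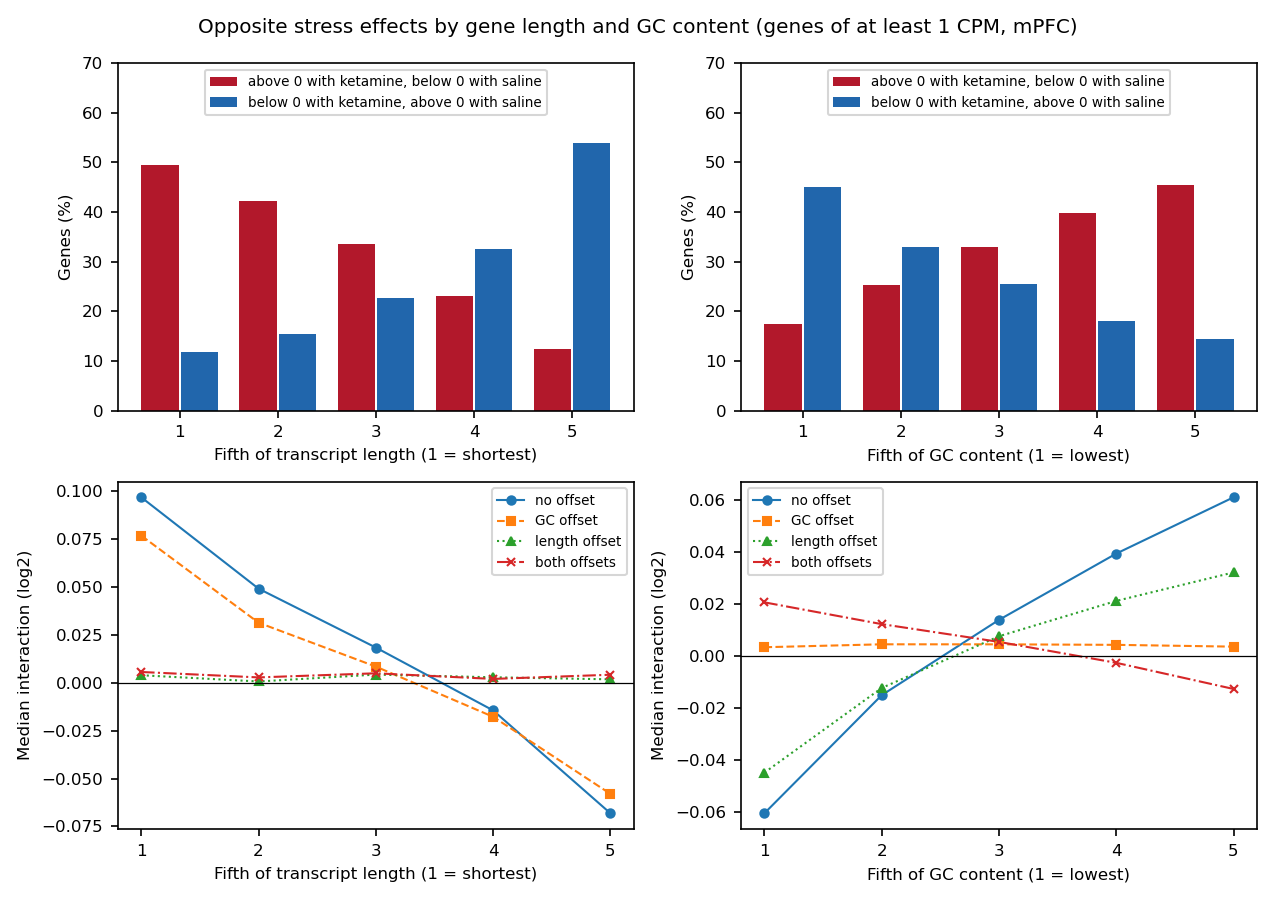
Opposite stress effects by 5 bins of gene length and of GC content, for genes of at least 1 CPM in the mPFC. The bars give the share of genes with each direction, from 49.4% and 11.7% in the shortest to 12.4% and 53.8% in the longest bin, and the lines give the median interaction, which lies near 0 in every length bin with the length offset.

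The class results were recomputed with an offset that sets the average of each of 20 bins of length equal in every library. The median interaction of OXPHOS genes was then 0.09 with 55 of 75 members opposite upward and 6 at an unadjusted p under 0.05, and that of ribosomal protein genes 0.06 with 48 of 79 opposite. Synaptic adhesion genes were at -0.10 with 19 of 38 opposite downward, and chromatin regulators at -0.03 with 18 of 34. Over all genes of at least 1 CPM, 4504 were opposite upward and 4102 downward in that fit, and 1325 of all genes tested (4.57%) had an unadjusted p under 0.05. Metabotropic glutamate receptors were between -0.19 and -0.14 and oligodendrocyte markers between 0.47 and 0.63 in all settings other than leaving out 1 mouse. The median of each of these lists kept its sign in those settings.

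The same interaction was fitted in 40 libraries of the ventral hippocampus (vHipp), from the 39 mice and mouse 5, to ask whether the classes differ between regions. In the vHipp 0 of 28991 genes (0%) had an adjusted p under 0.05 and 823 (2.84%) an unadjusted p under 0.05. The median interaction there was -0.04 for oligodendrocyte markers, 0.02 for OXPHOS genes, -0.05 for ribosomal protein genes, -0.03 for synaptic adhesion genes and -0.02 for chromatin regulators. The 5 length bins had medians from 0.03 in the shortest to -0.01 in the longest.

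The difference of the interaction between regions was tested in 1 fit of both. No gene passed, with 0 of 31534 (0%) at an adjusted p under 0.05 and a smallest adjusted p of 0.473 (edgeR), and 1130 (3.58%) had an unadjusted p under 0.05. With the mouse as a replicate block, which pairs the regions, that number was 913. The interaction was higher in the mPFC for 22 of 22 oligodendrocyte markers, 72 of 75 OXPHOS genes and 77 of 79 ribosomal protein genes, and lower for 31 of 38 synaptic adhesion genes and 30 of 34 chromatin regulators. Of these, 1 OXPHOS and 0 ribosomal protein genes had an unadjusted p under 0.05 without the block, where 471 of 31534 genes had one above 0, and 14 and 15 with it, where 349 had. In limma-voom with the mouse as a random effect, the other fit that pairs the regions, the number at this threshold was 1374, with 855 above 0 that included 2 OXPHOS and 6 ribosomal protein genes. Of the oligodendrocyte markers 0 of 22 had an unadjusted p under 0.05 in any of the 3 fits. Of the synaptic adhesion genes 0 had one below 0 in any of them, and 1 had one above 0 in each fit that pairs the regions. Of the 34 chromatin regulators 1 had one below 0 without the block, 4 with it and 1 in limma-voom. Of all 31534 genes 659, 564 and 519 had one below 0 in these 3 fits. Gm38162 had a difference with an unadjusted p of 0.000136, Gm26871 of 0.0122 and Kcnq1ot1 of 0.0136.

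**Figure D5:**
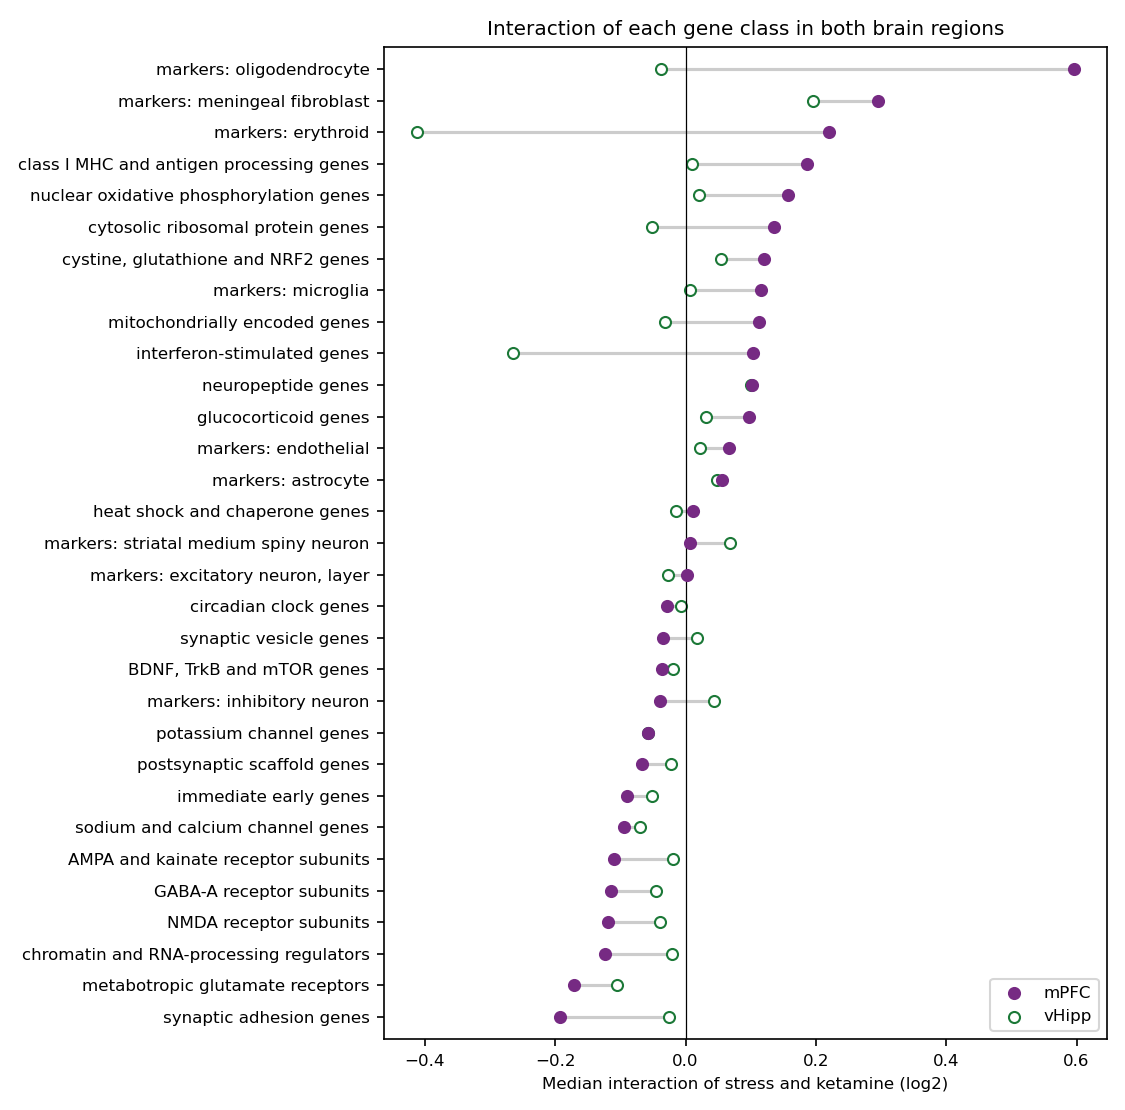
Median interaction of stress and ketamine for each gene class in the mPFC and in the vHipp, in log2 units; the choroid plexus markers, at -1.74 in the vHipp, are left out. The mPFC points of oligodendrocyte markers, OXPHOS, ribosomal protein, adhesion and chromatin genes lie away from 0, at 0.60, 0.16, 0.14, -0.19 and -0.12, and the vHipp points of the same classes lie between -0.05 and 0.02.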

How the data were processed

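Stranded mRNA libraries of mPFC and vHipp punches were sequenced at a core facility, and the authors deposited the counts as integers for each gene, not normalized. The submitters' processing notes name bcl2fastq 2.20.0.422, CASAVA and GRCm38; what aligned and counted the reads is not given in the sources used here. Of 55471 identifiers, 55230 were matched to GENCODE M21 genes, and 0 columns of per-sample values were unused.

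Genes with a total above 10 and detected in more than 3 libraries were tested with edgeR 4.0.16 (R 4.3.3), quasi-likelihood, TMM normalization, the 4 mPFC groups in 1 fit, two-sided, with Benjamini-Hochberg adjustment at 0.05. SEs are the LFC divided by the square root of F. The code was tested on simulated data. CPM use the TMM-scaled library totals, and class levels are mean deviations of log2(CPM + 0.5).

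Members and lists (32 lists, 733 of 735 genes tested) were chosen with earlier results of these data known. Genes were named by a rule: the 8 of smallest interaction p in each direction at 1 CPM or more, 6 crossing genes in each direction, the 2 of smallest p in each list, and H2-T22, H2-T23, Srp54a and the gene of smallest p at any level. Other members named as examples were chosen after their values were seen. Some genes that the rule names are not reported here.

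Alternatives were DESeq2 1.42.0, RLE normalization, limma-voom (limma 3.58.1) with and without sample weights, no filter, filterByExpr, the run of 4 consecutive mouse numbers as a block (10 runs, each with 1 stress group and both treatments), the set of 2 runs as a covariate, GC and length offsets, and each of the 39 mice left out. A run is only a number in the labels, and the social box is not given there. The mouse number pairs the regions, as the labels put mPFC and vHipp of 1 animal under it: deviations of the same mouse had a median correlation of 0.271, and of different mice -0.00463.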

Additional observations from a re-analysis of the deposited data

Results flagged for a closer look

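In 14 combinations of a group with a named gene or class (9.21% of those checked), 1 mouse stood far from the others of its group by Dixon's test, where chance gives about 1 in 20. Mouse 22, a saline-treated CTRL mouse, stood apart upward for Olig1 (112.5 CPM), Gjb1 (20.0 CPM), H2-T22 (9.40 CPM) and H2-T23 (7.86 CPM), and mouse 2, a saline-treated CSDS mouse, for Olig1 (85.4 CPM) and Gjb1 (12.9 CPM). Mouse 1, a ketamine-treated CSDS mouse, was apart downward for the synaptic adhesion class at -0.573 and for the chromatin class at -0.293 log2 units from the mean of all samples. Gm26871 was high in mouse 24 (7.37 CPM) of the saline-treated CTRL and in mouse 15 (11.4 CPM) of the saline-treated CSDS group. Muc3a was high in mouse 34 (6.04 CPM) of the ketamine-treated CTRL and in mouse 16 (4.60 CPM) of the ketamine-treated CSDS group. In mouse 23, a ketamine-treated CTRL mouse, Rps2 reached 83.3 CPM and 6720464F23Rik 0.0579 CPM. The causes were not tested.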

How the results depend on the processing

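Of the alternatives, 0 gave an adjusted p under 0.05 for the interaction, for either stress effect or for any of the 84 named genes, but with the smallest adjusted p at 0.771 these calls say nothing about stability. The number of genes at an unadjusted p under 0.05 moved by over 1.5 times in 8 cases, with filterByExpr to 914 (5.02% of the 18194 genes it tests) for the interaction (390 above 0 and 524 below 0), 5.64% of them for the stress effect with ketamine and 321 (1.76%) with saline, and for the stress effect with saline to 562 with DESeq2 and 1437 without a filter, and for the interaction below 0 to 1306 without a filter. For genes of 1 CPM or more the interaction split into 390 above 0 and 377 below 0, and 250 and 542 without a filter, where opposite genes numbered 4307 upward and 5036 downward. The median of chromatin regulators was -0.027 with the length offset and -0.030 with GC and length offsets together, the latter chosen after seeing the data. With both offsets, Grik2 reversed to 0.0081, Clock to 0.032 and Nktr to 0.041. The median of choroid plexus markers was 0.14 with limma-voom and 0.18 with sample weights. With 1 mouse left out, genes at an unadjusted p under 0.05 numbered 1260 to 1931 for the interaction, 1244 to 2357 for the stress effect with ketamine and from 798 (2.75%) to 3.47% of genes with saline, each with 0 adjusted calls, and opposite genes numbered 3879 to 5277 upward and 3878 to 4825 downward. Medians ran from 0.12 to 0.19 (OXPHOS), 0.09 to 0.17 (ribosomal), 0.26 to 0.91 (oligodendrocyte), -0.22 to -0.16 (adhesion) and -0.15 to -0.10 (chromatin). No mouse number is shared between the mPFC groups; across regions, the fit with the mouse as a replicate block, which pairs them, gave 913 genes in place of 1130 at an unadjusted p under 0.05, and limma-voom with the mouse as a random effect gave 1374.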

Other observations

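Gene biotypes outside the lists differed in direction. Of 892 processed pseudogenes of at least 1 CPM, 42.4% lay above 0 with ketamine and below 0 with saline and 9.98% showed the reverse, with a median interaction of 0.11 that was 0.00 with the length offset. Of 246 transcripts of the TEC biotype, provisional models, 12.6% lay in the first direction and 48.0% in the second. Their median was -0.13, and -0.18 with the length offset. An unadjusted p under 0.05 below 0 was found for 29 of them (11.8%), against 2.40% of all genes of at least 1 CPM. Over all those genes the 2 directions held 32.1% and 27.2%. Protein-coding genes had a median of 0.01.

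The smallest p of all tested genes belonged to 6720464F23Rik (unadjusted p = 3.4e-05, edgeR), a TEC transcript of 0.0457 CPM on average with a highest count of 5. It was at 0 in 3 saline-treated CTRL, 8 saline-treated CSDS, 9 ketamine-treated CTRL and 2 ketamine-treated CSDS mice. Srp54a, a subunit of the signal recognition particle with close paralogs, had medians of 2.22 and 2.57 CPM in saline-treated CTRL and CSDS mice and of 2.46 and 0.367 CPM in the ketamine-treated ones, with ranges that overlapped and an interaction of -1.11 ± 0.64 (SE). In the vHipp, choroid plexus markers had a median interaction of -1.74, interferon-stimulated genes of -0.27 and erythroid markers of -0.41.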
